A study of Mus musculus with 12 samples.

Results

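Besides annotated mouse genes, the deposited expression table listed transcribed places that the sequencing provider had assembled from the reads and numbered itself under the prefix BGI_novel_. Of its 21573 rows, 3983 carried this prefix and 17590 were listed as known genes. The 1693 provider-named loci described here reached 1 FPKM (fragments per kilobase of transcript scaled to the mapped fragments of the library) in at least 3 of the 12 libraries, and 2290 did not. The choice used these expression values, so which loci are listed is not a finding. At the edge of the rule, 312 loci reached 1 FPKM in exactly 3 libraries and 560 rows were left out for a single library. The minimum was reached through a single group by 2 loci in the control, 1 in CpG-A, 11 in CpG-B and 1 in CpG-C. A locus that entered only where it was high had to differ, so counts over the loci are descriptions.

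The cells were plasmacytoid dendritic cells from bone marrow of BALB/c mice at postnatal day 56 to 63, sorted and cultured for 24 h. There were 4 groups of 3 libraries: a control, and cells kept with 0.5 µM of CpG-A, of CpG-B or of CpG-C, which are 3 classes of synthetic DNA with unmethylated CpG motifs. Total RNA was sequenced. The labels used here give neither the sort gate nor whether replicates were separate mice or cultures, so p-values measure the spread between these libraries, which may be technical. FPKM per library is given below in the order control 1, 2, 3, CpG-A 1, 2, 3, CpG-B 1, 2, 3 and CpG-C 1, 2, 3. Locus identifiers are written without the shared prefix BGI_novel_.

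Plasmacytoid dendritic cells detect unmethylated CpG DNA with TLR9, a receptor of endosomes, and are known for making large amounts of type I interferon. CpG-A is known mainly as an inducer of that interferon, CpG-B as an inducer of maturation, and CpG-C as sharing properties of both. Loci that an assembler adds to an annotation can be long non-coding RNAs, precursors of microRNAs, antisense transcripts, extensions of known genes, or copies of genes such as processed pseudogenes, which arise when a messenger RNA is reverse transcribed into the genome.

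Among the loci, 18 in 11 places held a microRNA hairpin on their own strand, 17 hairpins in all of the 1005 in the RefSeq table for GRCm38.p6. Of these places, 3 had a locus that differed from the control, and their mature microRNAs are shown with the seed, bases 2 to 8, in capitals. Locus G001463 holds miR-155 (chromosome 16, plus strand), F630028O10Rik holds miR-223 (chromosome X, plus strand) and Snhg20 holds miR-6516 (chromosome 11, plus strand).
mmu-miR-155-5p: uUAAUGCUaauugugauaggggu
mmu-miR-155-3p: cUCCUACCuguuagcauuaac
mmu-miR-223-5p: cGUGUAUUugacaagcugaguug
mmu-miR-223-3p: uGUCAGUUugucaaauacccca
mmu-miR-6516-5p: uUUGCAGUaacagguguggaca
mmu-miR-6516-3p: uCAUGUAUgauacugcaaacag
These 6 seeds differ from each other. In the other places, miR-17-5p and miR-20a-5p shared the seed AAAGUGC, and miR-19a-3p and miR-19b-3p shared GUGCAAA. Both pairs lie in Mir17hg, whose loci did not pass the test in any class.

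The loci held 5.71% to 8.97% of the summed FPKM of a library, with 827 to 1171 of them at 1 FPKM or more and 257 to 580 listed at 0. The table gives no read counts, so the depth behind a value is unknown. All 9 markers of plasmacytoid dendritic cells were detected, with a summed level of 6337 to 10854 FPKM in the controls, 13337 to 18512 in CpG-A, 3955 to 15427 in CpG-B and 14267 to 17373 in CpG-C. Among them Siglech, a surface receptor of these cells, fell by 3.87 ± 0.41 in CpG-B (adjusted p = 4.77e-05). The markers did not move together. Tcf4 stood at 36.7, 121 and 127 FPKM in the controls and 7.55, 21.2 and 13.1 in CpG-B. Bst2 stood at 532, 170 and 563 FPKM in the controls and 423, 184 and 497 in CpG-B, and the summed levels of the 2 groups overlapped. Of the B cell genes, Pax5 was listed at 0 in every control, CpG-A and CpG-B library and reached 24.8 FPKM in CpG-C 1, and Ebf1 was at most 0.04 FPKM in every library. The 5 natural killer cell markers summed to 5.91 to 10.5 FPKM in the controls, 31.4 to 68.2 in CpG-A, 116 to 144 in CpG-B and 9.80 to 42.9 in CpG-C. These markers did not all rise. Ncr1 was at most 0.06 FPKM in the controls, where the other markers made up the sum. In CpG-A 1 it stood at 68.2 FPKM, the whole of the highest CpG-A sum, and in CpG-B at 46.3, 89.3 and 88.2. The 4 T cell markers listed summed to 8.82 to 35.7 FPKM in the controls, 0.04 to 34.6 in CpG-A, 3.37 to 79.2 in CpG-B and 0.25 to 4.80 in CpG-C. The 3 basophil and mast cell markers listed reached 101 FPKM in CpG-B and 19.3 in the controls. The 5 conventional dendritic cell markers, Xcr1, Clec9a, Zbtb46, Cd209a and Itgax, summed to 332 to 529 FPKM in the controls and 2.80 to 127 in the treated libraries. Of these, Cd209a is also on the list of plasmacytoid dendritic cell identity genes used below, so the sum does not stand for conventional dendritic cells alone. In such bulk samples, fewer cells of a type and less RNA per cell cannot be told apart.

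Many loci were annotated genes under another name. Against GENCODE M21, on the GRCm38 assembly that the submitters call mm10, 968 loci (57.2%) shared at least 100 bases with exons of a gene on their own strand, or on either strand where the table gave none. These fell on 665 genes, and in 475 loci at least 90% of the transcript length was covered by such exons. Long non-coding RNA genes accounted for 337 loci, processed pseudogenes for 287, protein-coding genes for 203, other pseudogenes for 87 and immunoglobulin or T cell receptor genes for 24. A further 485 loci (28.6%) met no annotated gene, 160 lay within a gene but under the minimum of exonic bases, and 78 met exons of the opposite strand only. Introns were removed in 788 loci (46.5%), and 627 had no strand, all of them unspliced. The median transcript length was 911 bases, against 2912 for known genes, and the median of mean FPKM was 3.79, against 10.3 for the known genes that passed the same minimum.

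**Figure D1:**
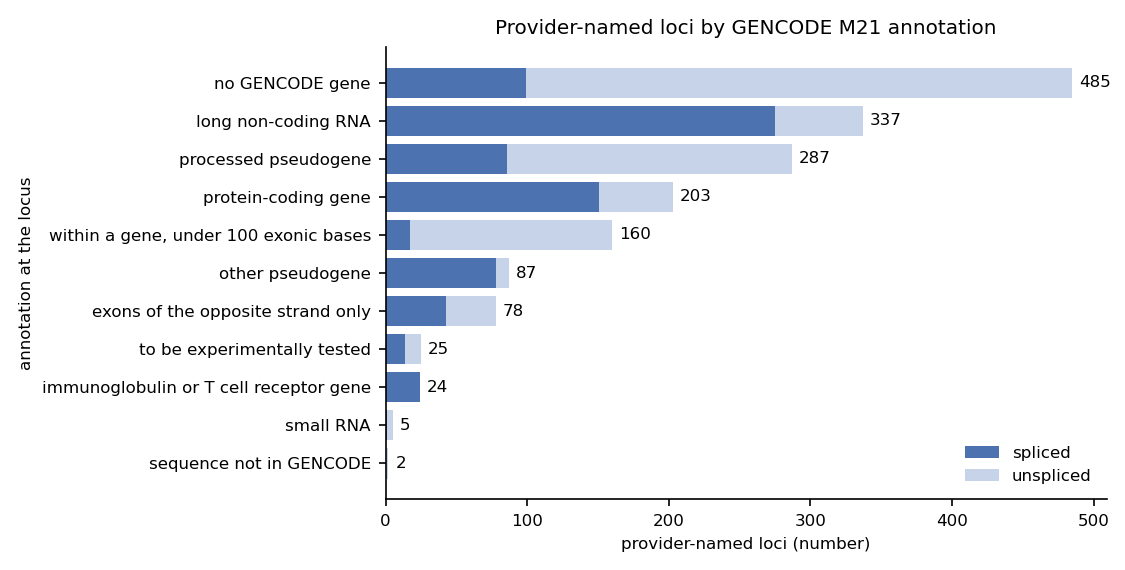
Number of provider-named loci in each GENCODE M21 annotation class, with spliced and unspliced loci stacked. The 485 loci without an annotated gene were mostly unspliced, and the 337 loci on long non-coding RNA genes mostly spliced.

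Of the loci on protein-coding genes, 63 bore the symbol of a gene that the same table also listed as known. The known row lay up to 5 kb away for 18 of them, overlapped 6, lay farther off on the same chromosome for 18 and lay on another sequence for 21. These 21 loci belonged to 18 genes, and for 11 of the genes GENCODE annotates a processed pseudogene on the strand of the known row. For Rpl11, a protein of the large ribosomal subunit, the known row lay at chr3:146838775-146839365, where GENCODE has the processed pseudogene Gm10288, and locus G002680 covered the gene itself at chr4:136049917-136053447. For Rps27, of the small subunit, the known row lay at chr9:114982371-114982739, annotated as Rps27rt, and locus G002402 covered Rps27 at chr3:90212566-90213671. The rows for Rps12, Rpl12, Rpl28, Atp5h, Atp5g2, Ndufs5, Mrpl27 and Oser1 also lay at such copies. For these genes the provider's number marked the annotated gene, and the gene's name marked a place elsewhere. Distances to known genes below use the positions in the table.

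The highest mean among the loci was 5125 FPKM. It belonged to G001392 on Iglc3, a constant region of the immunoglobulin lambda light chain, which ranged from 1442 to 8980 FPKM over the 12 libraries. Next stood Neat1, the RNA scaffold of nuclear paraspeckles (G001812), which ranged from 566 to 10564 FPKM and was highest in the number 2 library of every group. Ribosomal protein copies were also abundant. Of 77 loci on processed pseudogenes of ribosomal proteins whose known gene was in the table, 14 had a higher mean than that gene, and all 14 were among the 20 with a mean of at least 100 FPKM. Rps6-ps4 (G002149) averaged 2028 FPKM and known Rps6 32.3. Rpl15-ps3 (G003675) averaged 1833 FPKM and known Rpl15 31.0. Gm15500 (G003393) averaged 1165 FPKM and known Rpl5 7.06. Fragments from a gene and its near-identical copies can be split between rows, so the level of each row in such a pair is uncertain. The strand setting of the counting is not given in the sources used here, so reads of antisense partners cannot be told apart either.

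Overlapping entries also traded values between libraries. The 1693 loci formed 1331 places when overlapping entries on the same strand were joined, and 549 loci shared 187 places, with up to 14 in a place. On the mitochondrial genome, G003834 stood at 1434 FPKM in control 2 and was listed at 0 in controls 1 and 3. Its neighbour in the same place, G003835, stood at 1223, 0.61 and 1249 FPKM in the same 3 libraries. The sum of the 4 mitochondrial entries ranged from 2077 to 5539 FPKM, a 2.67-fold range. The 5 entries on Ighm, the constant region of immunoglobulin M, summed to 433 to 1254 FPKM.

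**Figure D2:**
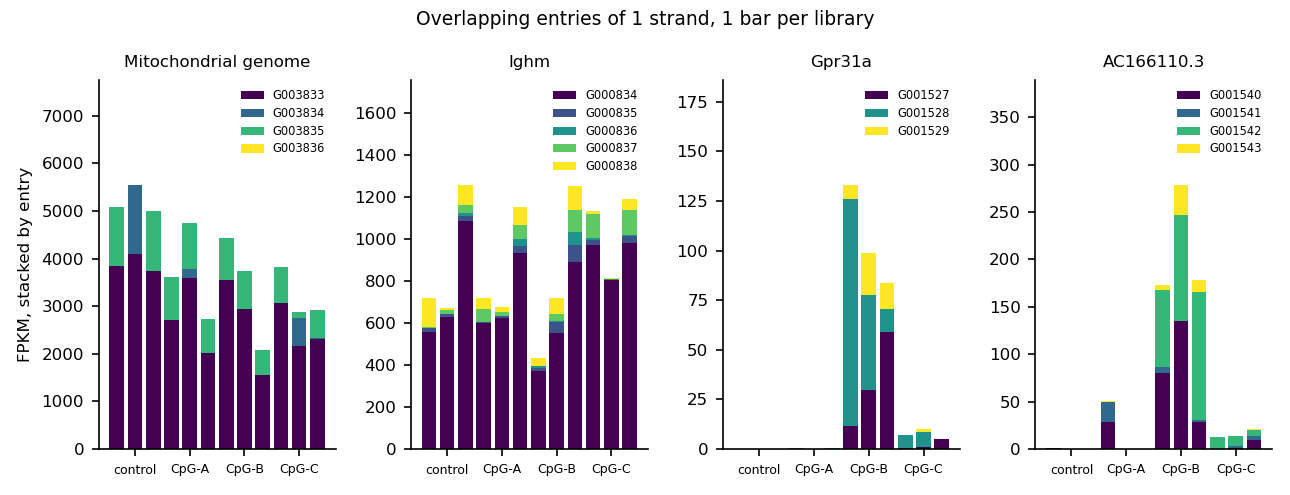
Summed FPKM of overlapping entries in 4 places, with 1 bar for each of the 12 libraries in the order control, CpG-A, CpG-B and CpG-C and 1 shade for each entry. Mitochondrial and Ighm sums were present in all 12 libraries, and those of Gpr31a and AC166110.3 stood highest in the 3 CpG-B libraries.

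The loci lay close to known genes more often on the upstream side. Of the loci, 50 overlapped a known gene on its strand, 41 on the opposite strand and 56 without a strand of their own. A further 458 lay within 5 kb of one, 585 at 5 to 50 kb and 396 farther away, and 107 lay on a sequence with no known gene. Within 1 kb, without overlap, there were 222 loci, of which 184 (82.9%) were upstream of the gene. Of the 154 with a strand, 112 (72.7%) were upstream on the opposite strand, the arrangement in which both transcripts start near each other and run apart. The others were 8 upstream on the same strand, 28 downstream on the opposite strand and 6 downstream on the same strand. For known genes and their nearest known neighbour within 1 kb, 48.1% of 1937 stranded pairs had that divergent arrangement.

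**Figure D3:**
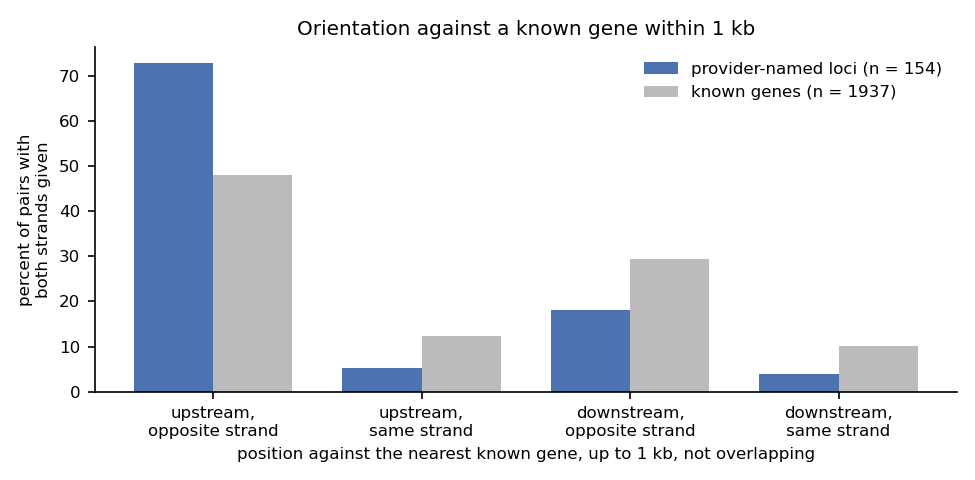
Percentage of stranded pairs within 1 kb in each of 4 arrangements, for 154 provider-named loci and their nearest known gene and for 1937 known genes and theirs. Upstream on the opposite strand held 72.7% of the loci and 48.1% of the known genes.

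The question of the design was which transcripts differed from the control after each class of CpG DNA. Differences were tested with limma on log2(FPKM + 1) over all 11641 rows that passed the minimum, and a call means a Benjamini-Hochberg adjusted p under 0.05 over all of them. In CpG-A, 10 loci rose and 3 fell, 0.768% of the loci, against 1.47% of all rows tested (1.05% higher and 0.421% lower). In CpG-B, 45 rose and 21 fell, 3.90% against 5.75% (3.26% higher and 2.48% lower). In CpG-C, 17 rose and 4 fell, 1.24% against 1.86% (1.34% higher and 0.524% lower). The shares were below those of all rows, and the median standard error was 0.89 for loci and 0.84 for all rows. The median log2 difference over the loci was -0.22, -0.20 and -0.14, beside -0.27, -0.25 and -0.22 over all rows. Differences on this scale understate the change of low loci.

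In all, 76 loci were called in at least 1 class, none of them in opposite directions. These counts and the pattern below are not given here for all rows. The classes share the same controls. Of these loci, 7 were called in all 3 classes, 3 in CpG-A and CpG-B, 2 in CpG-A and CpG-C, 5 in CpG-B and CpG-C, 51 in CpG-B alone, 7 in CpG-C alone and 1 in CpG-A alone. Over all rows CpG-B also had the most calls, 669 against 171 in CpG-A and 217 in CpG-C, so its lead was not particular to the loci. A call in 1 class and not in another is no test of their difference. Tested directly, CpG-A exceeded CpG-B at 7 loci and stood below it at 19, 1.54% of the loci against 2.43% of all rows (0.988% higher and 1.44% lower). CpG-B exceeded CpG-C at 16 and stood below it at 4, 1.18% against 1.35% (0.782% higher and 0.567% lower). Between CpG-A and CpG-C limma called 0 loci, as it called 0.0% of all rows, and 85 loci (5.02%) had an unadjusted p under 0.05. By annotation, in CpG-B 10 loci on processed pseudogenes rose and 1 fell, 8 on long non-coding RNA genes rose and 6 fell, 8 without an annotated gene rose and 6 fell, 6 on protein-coding genes rose and 3 fell, and 5 on other pseudogenes rose and 2 fell. In this order, 3.83%, 4.15%, 2.89%, 4.43% and 8.05% of the loci of each kind were called, beside 5.75% of all rows. Of 66 called differences of the loci taken by size, 16, at 12 loci, kept their call under every alternative run. These were G001463, G004087, G002571, G001542, G000827, G001687, G000643 and G000624 in CpG-B, G001463, G004087, G000201 and G003724 in CpG-C, G000083 in CpG-A, G001532 and G001542 between CpG-A and CpG-B, and G003724 between CpG-B and CpG-C. Spliced loci were called in CpG-B in 5.20% of cases and unspliced ones in 2.76%, both below the 5.75% of all rows.

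**Figure D4:**
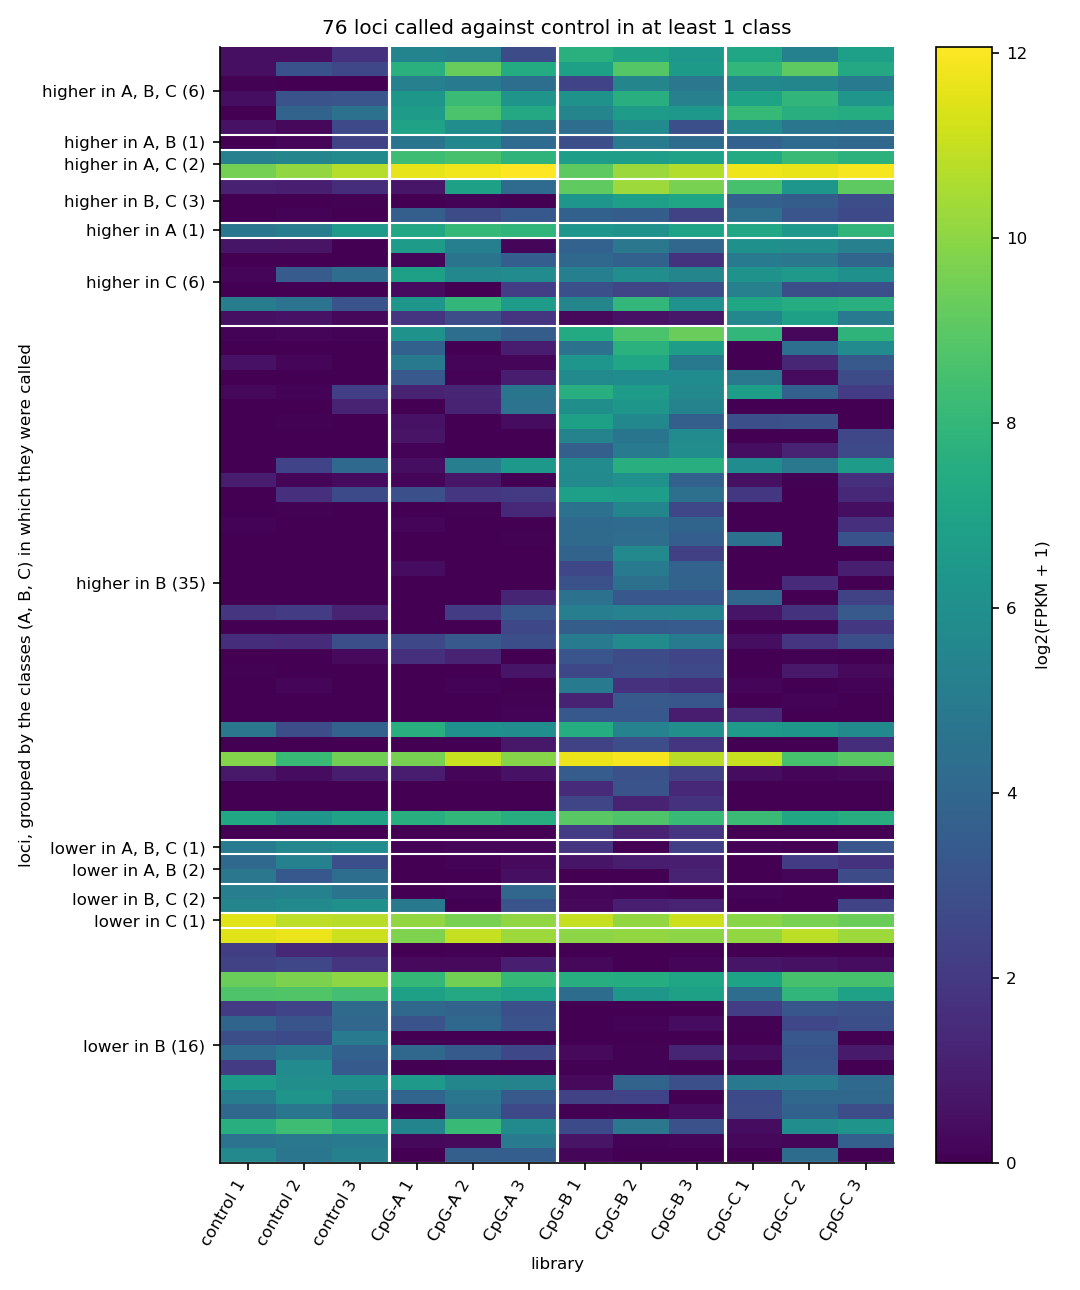
Heat map of log2(FPKM + 1) for the 76 loci called in at least 1 class (rows) in the 12 libraries (columns), grouped by the classes in which they were called and by direction. The groups for CpG-B alone are the longest, with 35 loci higher and 16 lower than the control.

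The precursor of miR-155, a microRNA known to be induced by Toll-like receptor signals in macrophages and dendritic cells, was high in all 3 treated groups. Locus G001463 at chr16:84703331-84716240, plus strand, overlaps 1269 exonic bases of Mir155hg, and its span holds the miR-155 hairpin whose arms are printed above. It stood at 0.41, 0.41 and 2.33 FPKM in the controls, 42.5, 35.6 and 5.80 in CpG-A, 199, 122 and 84.8 in CpG-B and 141, 38.7 and 110 in CpG-C. Every treated library was above every control, with CpG-A 3 nearest to them. The log2 difference was 6.09 ± 0.76 (SE) in CpG-B with adjusted p = 0.00022, and 5.51 ± 0.76 in CpG-C with adjusted p = 0.000854. In CpG-A it was 3.56 ± 0.76 with adjusted p = 0.0263, a call lost without CpG-A 1, CpG-A 2, CpG-B 2, control 1 or control 2, where adjusted p reached 0.13. The nearest known gene, Mrpl39, did not pass the test (adjusted p = 0.406, 0.908 and 0.999). On the opposite strand, G001464 at chr16:84714101-84716092 was listed at 0 in the 3 controls and stood at 12.3, 0 and 0.87 FPKM in CpG-A, 21.9, 209 and 103 in CpG-B and 0, 20.6 and 55.1 in CpG-C. It was called in CpG-B (adjusted p = 0.0118; 0.0678 without CpG-B 2). Without a known strand setting its reads cannot be told apart from those of G001463.

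The locus with the largest fitted rise of all 1693 in CpG-A lay on the Y chromosome. G004087 at chrY:90719503-90722189, plus strand, spliced and without an annotated gene, stood at 0.43, 7.17 and 4.88 FPKM in the controls. It reached 201.2, 608 and 172 FPKM in CpG-A, 117, 469 and 95.8 in CpG-B and 251, 536 and 154 in CpG-C. No treated library came near a control, and the number 2 library was highest in each treated group. The log2 difference was 6.08 ± 0.76 in CpG-A (adjusted p = 0.000423), 5.42 ± 0.76 in CpG-B (0.00056) and 6.08 ± 0.76 in CpG-C (0.000371). The nearest known gene, Erdr1, 10437 bases away on the same strand, stood at 86.1 to 285 FPKM throughout and was not called (adjusted p = 0.953, 0.91 and 0.921). Relative to Erdr1 the locus rose by 6.19 ± 1.05 in CpG-A, with adjusted p = 0.0155, a call lost without any CpG-A library, control 1 or control 2. G004086, just before it on the same strand, rose in all 3 classes by 4.11 to 4.83 on the log2 scale. G004091 on Gm21748, at chrY:90836777-90840372, also rose in all 3, in CpG-A by 4.76 ± 0.85 (adjusted p = 0.00751). Its calls in CpG-B (0.0407) and CpG-C (0.0303) were lost without CpG-B 1, CpG-C 2, CpG-C 3, control 1 or control 2, among others (up to 0.186 and 0.124).

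Ifi206, a gene of the interferon-inducible PYHIN family of nucleic acid sensors, held 3 loci on the minus strand that overlap the known gene Pydc4 of the same family. G000201 at chr1:173468477-173491303 stood at 0.05, 0 and 0 FPKM in the controls, 37.6, 31.7 and 19.7 in CpG-A, 4.39, 44.3 and 26.5 in CpG-B and 48.3, 44.8 and 30.5 in CpG-C. All treated libraries were above all controls, and CpG-B 1 was the lowest of them. The log2 difference was 4.87 ± 0.77 (adjusted p = 0.00292), 4.21 ± 0.77 (0.0039) and 5.35 ± 0.77 (0.0012) in CpG-A, CpG-B and CpG-C. Pydc4 rose by 5.74 in CpG-A (adjusted p = 0.00021). Since the entries overlap on the same strand, their levels are not separate measurements. The promoter window of Ifi206, from 250 bases before to 50 after the RefSeq start (GRCm38.p6, chr1:173491269-173491568, minus strand), is shown for its match to an interferon-stimulated response element, in capitals at window bases 211 to 220.
Ifi206 promoter: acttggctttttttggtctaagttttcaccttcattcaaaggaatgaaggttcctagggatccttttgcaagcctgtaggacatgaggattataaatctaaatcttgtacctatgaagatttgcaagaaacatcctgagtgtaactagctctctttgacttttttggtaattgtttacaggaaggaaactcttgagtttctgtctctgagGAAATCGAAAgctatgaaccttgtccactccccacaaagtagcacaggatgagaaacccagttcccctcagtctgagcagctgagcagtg
The motif searched was GAAANNGAAA on both strands, and 3.44% of 32851 RefSeq promoter windows hold it. Of the 665 genes matched by loci, 222 had a window and 8 of these (3.60%) held the motif. They included Ifi206 and Gm36161 among 12 genes with a locus that rose, and F630028O10Rik among 8 with a locus that fell. The letters GGGANTTTCC, for NF-kB, were in 0 of the 222 windows and in 0.411% of all. TGANTCA, for AP-1, was in 20 (9.01%) and in 7.81% of all.

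The table's orthology column named 46 loci, in 22 places, as nuclear autoantigen Sp-100, a protein of nuclear bodies known to be induced by interferon. They lay on chromosome 1 and on sequences not placed on a chromosome. Of these, 3 rose in CpG-A, 2 in CpG-B and 3 in CpG-C, and none fell in these comparisons. These are 6.52%, 4.35% and 6.52% of the 46, beside 1.47%, 5.75% and 1.86% of all rows. Their median log2 differences were 0.81, 0.25 and 1.04. G000083 at chr1:85111312-85114054, plus strand, on the antisense gene A530040E14Rik, stood at 37.7, 43.3 and 53.1 FPKM in the controls and 317, 369 and 230 in CpG-A. It stood at 106, 103 and 118 FPKM in CpG-B and 168, 289 and 215 in CpG-C. The 4 groups did not overlap except for CpG-A and CpG-C. The log2 difference was 2.73 ± 0.36 in CpG-A (adjusted p = 0.000649) and 2.28 ± 0.36 in CpG-C (0.00282). CpG-A exceeded CpG-B by 1.45 ± 0.36 (adjusted p = 0.0494), which was lost without any of 10 libraries, all but CpG-C 1 and control 1, with adjusted p up to 0.167. G001965, on the chromosome 1 sequence GL456211 that has no fixed place, stood at 0, 13.2 and 22.4 FPKM in the controls and 100, 394 and 154 in CpG-A. It rose by 4.73 ± 0.90 in CpG-A (adjusted p = 0.0114; 0.0589 without CpG-A 2) and 4.92 ± 0.90 in CpG-C (0.00845). Summed with the entries that overlap it, the differences were 2.10 (0.0196) and 2.27 (0.0114), and both single calls were lost with a pseudocount of 0.1, without the filter on low values and with only the groups compared. The known row Sp100 differed by 0.44 in CpG-A, with adjusted p = 0.668. How reads shared by such copies were split is not given in the sources used here.

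**Figure D5:**
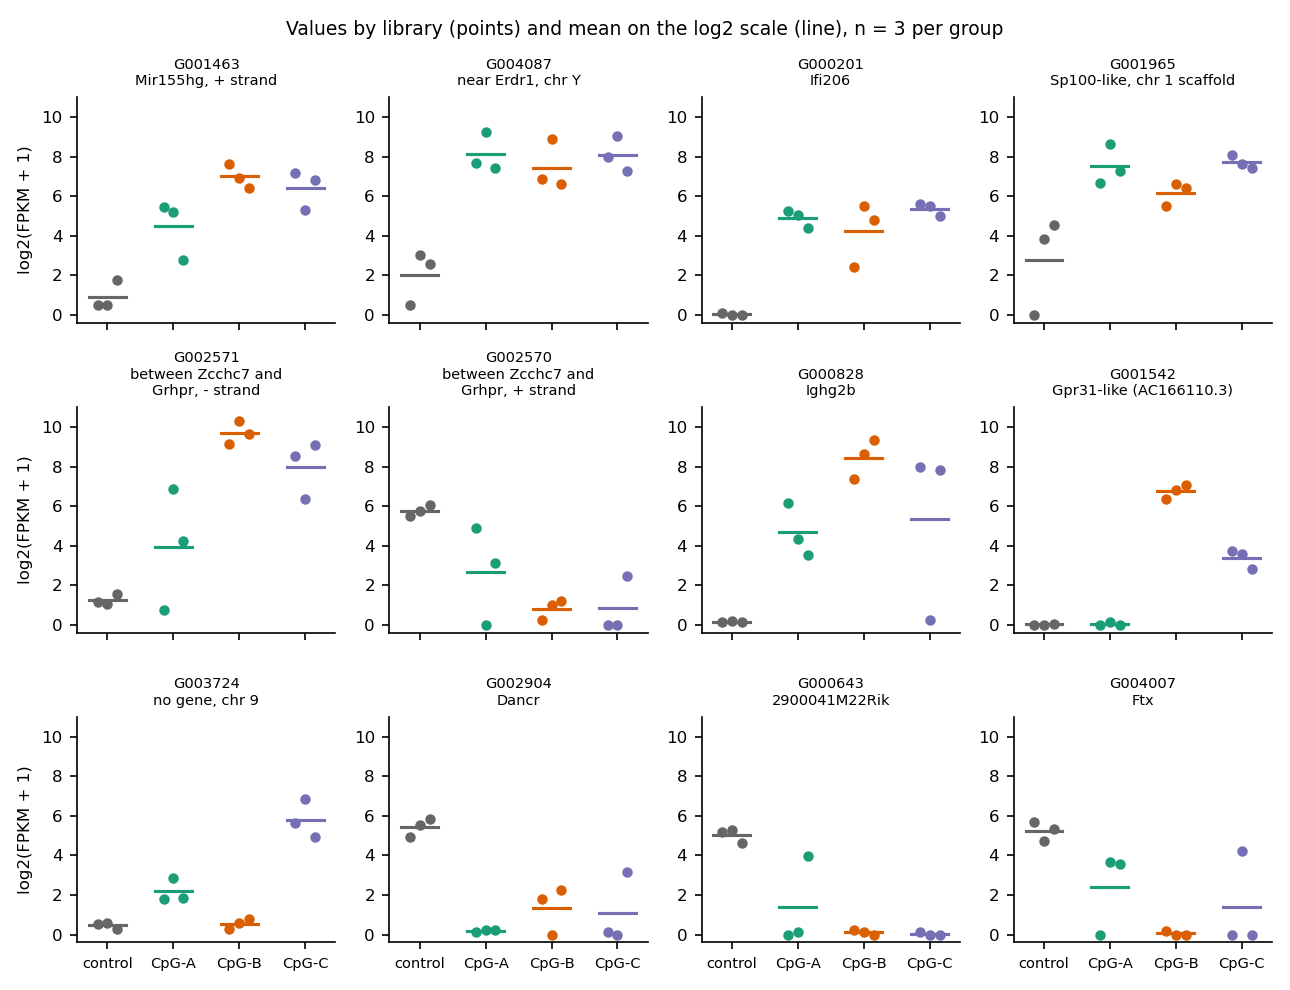
log2(FPKM + 1) of 12 named loci in each library, with 1 panel per locus, points for the 3 libraries of each group and a line at the group mean. G001463 and G004087 were higher in all treated libraries than in the controls. The values of G002571 and G002570, overlapping entries of opposite strands, moved in opposite directions.

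On chromosome 4, the values of overlapping entries of opposite strands moved apart. G002571 at chr4:44956334-44958021, minus strand, spliced and without an annotated gene, stood at 1.18, 1.04 and 1.97 FPKM in the controls and 0.67, 114 and 17.6 in CpG-A. It reached 560, 1244 and 802 FPKM in CpG-B and 374, 79.9 and 544 in CpG-C. All CpG-B and CpG-C libraries were above the controls, while CpG-A ranged from control level to 114. The log2 difference was 8.45 ± 1.11 in CpG-B (adjusted p = 0.000304) and 6.75 ± 1.11 in CpG-C (0.0036). CpG-A stood below CpG-B by -5.75 ± 1.11 (adjusted p = 0.0124; 0.0517 without CpG-B 2). G002570, on the plus strand at chr4:44956317-44957169, overlaps it. It stood at 43.5, 52.6 and 66.2 FPKM in the controls, 28.8, 0 and 7.67 in CpG-A, 0.18, 0.99 and 1.26 in CpG-B and 0, 0 and 4.49 in CpG-C. It fell by 4.96 ± 1.11 in CpG-B (adjusted p = 0.0149) and 4.94 ± 1.11 in CpG-C (0.0335). The CpG-B call was lost without CpG-B 1, control 2 or control 3 (up to 0.0674), and the CpG-C call without any control, any CpG-B library, CpG-C 1 or CpG-C 2 (up to 0.122). Nearby, G002568 at chr4:44945048-44945518, within the gene Gm12678, was called higher in CpG-C (adjusted p = 0.0351), a call lost without any control, CpG-B or CpG-C library (up to 0.121). The nearest known genes of G002571 and G002570, Grhpr and Zcchc7, lay over 20 kb away, and limma called neither in any class.

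Loci named for the receptor of 12-(S)-HETE, a lipid mediator made by 12-lipoxygenases, stood high in CpG-B. The orthology column gave this receptor for 8 loci in 3 places on chromosome 17, and 7 of them (87.5%) rose in CpG-B, beside 3.26% of all rows. Entries of the same place overlap and are not separate measurements. Their median log2 difference there was 5.05. G001542 at chr17:13341143-13346242, minus strand, on the processed pseudogene AC166110.3, stood at 0, 0 and 0.04 FPKM in the controls and 0, 0.09 and 0 in CpG-A. It reached 81.2, 112 and 135 FPKM in CpG-B and 12.3, 10.9 and 6.13 in CpG-C. For this entry the 3 CpG-B libraries were the highest and CpG-A overlapped the controls. The sum of the 4 entries in its place stood at 0.51, 0.11 and 0.07 FPKM in the controls, 50.2, 0.23 and 0.35 in CpG-A, 173, 278 and 178 in CpG-B and 12.3, 13.9 and 21.1 in CpG-C. In the sum, CpG-A 1 was above every CpG-C library. The log2 difference in CpG-B was 6.74 ± 0.71 (adjusted p = 4.73e-05). In CpG-C it was 3.36 ± 0.71 (0.022), lost without any CpG-C library, control 2 or control 3 (up to 0.0776) and when the overlapping entries were summed (0.113). CpG-B exceeded CpG-C by 3.37 ± 0.71 (0.0277), a call lost without any CpG-B library, CpG-C 2 or CpG-C 3 (up to 0.136), and with summed entries (0.149). GENCODE types Gpr31a as a processed pseudogene as well. The sum of the 3 entries on it was 0, 0.06 and 0 FPKM in the controls, 0.59, 0 and 0.30 in CpG-A, 133, 98.8 and 83.8 in CpG-B and 7.03, 10.0 and 5.24 in CpG-C. It rose by 6.68 ± 0.71 in CpG-B (adjusted p = 4.44e-05) and 3.01 ± 0.71 in CpG-C (0.0418). On the plus strand opposite the pseudogene Gm6553, G001532 stood at 40.6, 24.4 and 54.6 FPKM in CpG-B and at most 4.85 elsewhere (CpG-B against control 5.27 ± 0.81, adjusted p = 0.00111). The known gene of the family, Gpr31b at chr17:13050825-13052280, stood at 102, 175 and 211 FPKM in CpG-B and at most 18.7 in the other groups, and rose by 7.22 in CpG-B (adjusted p = 0.000115). Reads shared by these copies may likewise be split among them.

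Constant regions of immunoglobulin G heavy chains, which are the secreted antibody classes of B lineage cells, were also high in CpG-B. G000828 on Ighg2b, at chr12:113306285-113314767, minus strand, stood at 0.10, 0.12 and 0.08 FPKM in the controls and 70.6, 19.3 and 10.7 in CpG-A. It stood at 163, 400 and 639.5 FPKM in CpG-B and 252, 0.18 and 226 in CpG-C. CpG-C 2 was at control level while the other 2 CpG-C libraries were at CpG-B level. The log2 difference in CpG-B was 8.30 ± 1.49 (adjusted p = 0.00358). G000827 on Ighg2c stood at 51.6, 56.7 and 57.5 FPKM in CpG-B and at 0.02 to 0.03 in the controls (5.77 ± 1.09, adjusted p = 0.00471). Of 24 loci on immunoglobulin or T cell receptor genes, G000828 and G000827 were the 2 called in CpG-B. The name Ighg2c comes from the GENCODE annotation of mm10, and whether these BALB/c mice carry that gene was not checked. Among further genes of B lineage cells, Pax5, Ebf1 and Jchain were listed at 0 in all CpG-B libraries. Sdc1 stood at 0.08, 0.03 and 1.72 FPKM in CpG-B and at 0.18, 13.5 and 15.5 in the controls. The part of other cells in the immunoglobulin values was not tested.

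Further loci on long non-coding RNA genes rose in CpG-B. G003523 on Gm38414, at chr8:36159074-36161664, stood at 0.14 to 0.89 FPKM in the controls, 0.04 to 0.66 in CpG-A, 54.2, 67.7 and 12.6 in CpG-B and 0.04 to 2.04 in CpG-C. The CpG-B libraries did not overlap any other, and the log2 difference was 4.73 ± 0.81 (adjusted p = 0.00261). CpG-A stood below CpG-B by -4.90 ± 0.81 (adjusted p = 0.00543). G003234 on Sox5os3, antisense to the Sox5 region, was listed at 0 in all 9 other libraries and at 13.6, 50.8 and 3.82 FPKM in CpG-B (adjusted p = 0.0047), and so entered only through CpG-B. G001845 on AW112010, an interferon-inducible transcript of mouse immune cells known to encode a protein, stood at 910, 286 and 728 FPKM in the controls, 758, 2127 and 938 in CpG-A, 3310, 3822 and 1783 in CpG-B and 2108, 373 and 506 in CpG-C. It rose by 2.30 ± 0.61 in CpG-B (adjusted p = 0.0372), a call lost without CpG-B 1, CpG-B 2, control 2 or control 3 (up to 0.164). G000635, at chr11:116027087-116028008, shares 107 bases with exons of the histone gene H3f3b on its strand. It stood at 22.8, 45.8 and 4.95 FPKM in CpG-B and at most 1.53 elsewhere (4.21 ± 0.77, adjusted p = 0.0042).

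Several loci that rose in CpG-B are copies of other genes. They were set beside their known genes after their values had been seen, and GENCODE types Gm10184 and Gm10053 as protein-coding. Of the known genes looked at, Gapdh, Odc1 and Nhp2l1 were not called in CpG-B (adjusted p = 0.21, 0.254 and 0.295) and Hspe1 rose by 1.31 (0.0452). Gm10184 (G001687), a copy of Kpna2, which encodes an importin of nuclear transport, stood at 0, 0 and 1.21 FPKM in the controls and 62.4, 81.5 and 41.8 in CpG-B. It rose by 5.54 ± 1.02 (adjusted p = 0.00421), while Kpna2 differed by 2.10 (0.34). Gm10053 (G001857), a copy of the cytochrome c gene Cycs, stood at 148, 78.6 and 123 FPKM in the controls and 510, 427 and 287 in CpG-B. It rose by 1.81 ± 0.39 (adjusted p = 0.0115), and Cycs rose by 2.18 (0.00252). Gm15459 (G002783), a copy of the chaperone gene Hspa8, rose by 4.81 ± 1.29 (0.04), and Hspa8 rose by 1.43 (0.0368). Impdh2-ps (G003591), a copy of an enzyme gene of guanine nucleotide synthesis, stood at 3.26, 1.28 and 2.53 FPKM in CpG-B and was listed at 0 elsewhere (adjusted p = 0.0364), so that it entered only through CpG-B, and Impdh2 rose by 2.31 (0.033). The calls of Gm10053 and Gm15459 were lost without CpG-B 1 or control 2, and that of Gm15459 also without CpG-B 2, CpG-B 3, CpG-C 3 or control 1 (up to 0.143) and when its overlapping entries were summed (0.688). That of Impdh2-ps was lost in 9 of the 12 omissions, all but CpG-A 1, CpG-B 2 and CpG-C 1 (up to 0.102).

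Among the loci that fell, Dancr was lower in all 3 classes. Dancr is a long non-coding RNA that hosts small nucleolar RNAs and is known from human epidermal progenitors as a block to differentiation. G002904 at chr5:74093052-74094336, plus strand, stood at 29.9, 46.3 and 56.8 FPKM in the controls, 0.10, 0.17 and 0.17 in CpG-A, 2.51, 0 and 3.75 in CpG-B and 0.09, 0 and 8.03 in CpG-C. No treated library reached a control. It fell by 5.26 ± 0.95 in CpG-A (adjusted p = 0.00838), 4.10 ± 0.95 in CpG-B (0.0185) and 4.36 ± 0.95 in CpG-C (0.0287). The CpG-A call was lost with a pseudocount of 0.1, without the filter, with only the groups compared and without the libraries numbered 1. The CpG-B call was lost without CpG-B 2, control 2 or control 3 (up to 0.0989), and the CpG-C call without CpG-C 1, CpG-C 2, control 2 or control 3 (up to 0.119). G000643 on 2900041M22Rik, at chr11:117611334-117612777, stood at 35.1, 38.5 and 24.0 FPKM in the controls, 0, 0.08 and 14.9 in CpG-A and at most 0.17 in CpG-B and CpG-C. It fell by 4.93 ± 0.95 in CpG-B (adjusted p = 0.00553) and fell by 4.999 ± 0.95 in CpG-C (0.0115; 0.0571 without CpG-C 3).

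Other loci that fell in CpG-B include hosts of small RNAs. Ftx, a long non-coding RNA of the X inactivation centre (G004007, chrX:103587748-103605618), stood at 49.99, 25.8 and 39.1 FPKM in the controls, 0, 11.7 and 11.04 in CpG-A, 0.14, 0 and 0 in CpG-B and 0, 18.0 and 0 in CpG-C. It fell by 5.18 ± 1.199 in CpG-B (adjusted p = 0.0179), which was lost without any CpG-B library, control 1 or control 3 (up to 0.0636). The sum of the Ftx entries that overlap it gave an adjusted p of 0.00157. G004007 itself holds none of the microRNA hairpins of Ftx, which lie in other entries of that gene. Snhg20 (G000640, chr11:117076772-117078955), host of a small nucleolar RNA and of miR-6516, stood at 430, 448 and 349 FPKM in the controls, 116, 157 and 117 in CpG-A, 18.0, 81.7 and 117 in CpG-B and 18.6, 246 and 119 in CpG-C. Its fall in CpG-B was 2.84 ± 0.78 (adjusted p = 0.0452). F630028O10Rik (G003976, chrX:96239942-96243640), host of miR-223, a microRNA known to be abundant in myeloid cells, stood at 3.22, 55.7 and 9.84 FPKM in the controls. It was at most 0.04 in CpG-A and CpG-B and 0.04, 8.41 and 0 in CpG-C, and fell by 3.74 ± 0.99 in CpG-B (adjusted p = 0.037). The calls of Snhg20 and F630028O10Rik were each lost without CpG-A 2, CpG-A 3, CpG-B 1, CpG-B 2, control 2 or control 3 and further libraries, with adjusted p up to 0.2 and 0.134, and that of Snhg20 also with median-of-ratios scaling (0.0593). Eldr, Gpr137b-ps, the locus beside E330020D12Rik (G000163) and Gm7618 also fell in CpG-B, by 3.87 to 4.48 on the log2 scale, and each of these calls was lost without control 2, among others (adjusted p up to 0.164). The summed conventional dendritic cell markers given above, Cd209a among them, were likewise lower in all treated groups than in the controls, and their part in these differences was not tested.

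The locus G002402 on Rps27 stood at 2815, 3356 and 2242 FPKM in the controls, 848, 2046 and 1255 in CpG-A, 986, 1087 and 1016 in CpG-B and 1092, 1866 and 1239 in CpG-C. It fell by 1.43 ± 0.33 in CpG-B (adjusted p = 0.017), lost without CpG-B 1, CpG-B 3 or control 2 (up to 0.0842) and with median-of-ratios scaling (0.0593). The known row placed at Rps27rt fell by 1.47 (adjusted p = 0.00606). G001820, an unspliced locus without an annotated gene at chr19:6679557-6680087, stood at 644, 814 and 1037 FPKM in the controls and 180, 177 and 142 in CpG-B. It fell by 2.30 ± 0.47 (adjusted p = 0.0084), and CpG-A and CpG-C ranged from 129 to 730 FPKM. Of all 118 loci with a ribosomal protein orthology entry, 3 were called in CpG-B (2.54%, beside 5.75% of all rows), 2 in CpG-C (1.69%, beside 1.86%) and in CpG-A limma called 0. Rps27 (G002402) and Gm7618 (G003244) fell in CpG-B, and Gm12918 (G002522) fell in CpG-C. G000556 on Slfn10-ps rose in CpG-B and G000202 within Ifi206 rose in CpG-C, but GENCODE places neither on a ribosomal protein gene.

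In CpG-C, G003724 at chr9:52261946-52284447, plus strand, spliced and without an annotated gene, differed from the control and from CpG-B. It stood at 0.43, 0.51 and 0.20 FPKM in the controls, 2.52, 6.28 and 2.62 in CpG-A, 0.22, 0.49 and 0.71 in CpG-B and 49.4, 117 and 29.2 in CpG-C. CpG-C and CpG-A lay above the controls without overlap, CpG-C highest, and CpG-B overlapped the controls. It rose by 5.36 ± 0.78 in CpG-C (adjusted p = 0.00137), and CpG-B stood below CpG-C by -5.27 ± 0.78 (0.00367). CpG-A differed from CpG-C by -3.64, which was not called (adjusted p = 0.726). G000658 on Rnf213, an E3 ubiquitin ligase, at chr11:119468589-119487456, stood at 0.13, 10.1 and 18.9 FPKM in the controls and 73.2, 92.1 and 65.7 in CpG-C. It rose by 3.62 ± 0.82 there (adjusted p = 0.0348), lost without CpG-A 3, control 2 or any CpG-B or CpG-C library (up to 0.0991). G002448 on the long non-coding RNA gene Gm5547 separated the classes without a call against the control. It stood at 68.5, 135 and 185 FPKM in the controls, 126, 298 and 290 in CpG-A, 8.70, 64.1 and 56.3 in CpG-B and 238, 394 and 291 in CpG-C. CpG-A exceeded CpG-B by 2.75 ± 0.65 (adjusted p = 0.0377) and CpG-B stood below CpG-C by -3.19 ± 0.65 (0.0227). These calls were lost without CpG-B 1 or CpG-C 3, among others, with adjusted p up to 0.134 and 0.125. G001022 on D13Ertd608e (chr13:119845241-119846678) stood at 3124, 3573 and 4283 FPKM in CpG-A and 3519, 3195 and 3785 in CpG-C. In the controls it stood at 737, 1087 and 1674 FPKM and in CpG-B at 533, 1216 and 1639. CpG-A and CpG-C overlapped each other and stood above the other groups, with CpG-A above the control by 1.72 ± 0.38 (adjusted p = 0.035) and above CpG-B by 1.83 ± 0.38 (0.0203). The call against the control was lost without any CpG-A library, CpG-B 2, CpG-C 3, control 1 or control 2 (up to 0.138), and that against CpG-B without CpG-A 2, CpG-A 3 or CpG-B 1 (up to 0.0873).

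Calls of loci were set beside those of their nearest known gene. Among 1102 pairs in which that gene passed the minimum, both were called in the same direction 2 times in CpG-A, 9 in CpG-B and 2 in CpG-C, and in opposite directions in none. Of these pairs 2, 5 and 2 overlapped, and overlapping entries can share reads. The pairs of CpG-A and of CpG-C were all entries at Ifi206 against Pydc4. Among 7038 known genes with such a neighbour the counts were 22, 49 and 23, of which 14, 18 and 16 overlapped. Of the loci called, 22.2%, 21.95% and 11.1% had a neighbour called in the same direction, and of the known genes called 19.0%, 11.1% and 16.5%, differences that were not tested. Against the nearest gene on the same strand, among 635 pairs, the counts were 2, 11 and 2, with 1 opposite pair in CpG-B. Across pairs within 5 kb, overlaps included, the correlation of the log2 differences of locus and gene was 0.26, 0.35 and 0.24 over 546 loci in CpG-A, CpG-B and CpG-C. At 5 to 50 kb it was 0.01, 0.07 and 0.02 over 383, and for known genes within 5 kb 0.18, 0.20 and 0.22 over 4541. Both members of a pair come from the same libraries, and pairs are not independent replicates.

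The pairs called together include one at Dll4, a ligand of Notch receptors, that is divergent as the provider places it. G002190 on the long non-coding RNA gene Gm14207 lies on the minus strand at chr2:119312997-119325619 as the provider gives it, 165 bases from Dll4 on the plus strand. RefSeq puts the promoter window of Gm14207 at chr2:119326148-119326447, so its annotated start differs from the provider's. That window lies within Dll4 (chr2:119325784-119336362), so by annotation the genes overlap on opposite strands. Dll4 stood at 0.05 to 1.04 FPKM in the controls, 0 to 2.68 in CpG-A, 29.5, 41.0 and 35.0 in CpG-B and 0.04 to 2.59 in CpG-C. The locus stood at 0, 2.13 and 5.47 FPKM in the controls, 6.74, 2.71 and 3.15 in CpG-A, 112, 105 and 21.2 in CpG-B and 2.94, 0 and 1.54 in CpG-C. For both, CpG-B did not overlap any other group. The locus rose by 4.56 ± 0.95 in CpG-B (adjusted p = 0.00921; lost without CpG-B 1 or CpG-B 2, up to 0.0575), and Dll4 rose by 4.50 (0.0036). The RefSeq promoter window of Dll4 (GRCm38.p6, chr2:119325534-119325833, plus strand) is shown because it holds the gap, and the 164 bases between the provider's end of the locus and Dll4 are in capitals.
Dll4 promoter: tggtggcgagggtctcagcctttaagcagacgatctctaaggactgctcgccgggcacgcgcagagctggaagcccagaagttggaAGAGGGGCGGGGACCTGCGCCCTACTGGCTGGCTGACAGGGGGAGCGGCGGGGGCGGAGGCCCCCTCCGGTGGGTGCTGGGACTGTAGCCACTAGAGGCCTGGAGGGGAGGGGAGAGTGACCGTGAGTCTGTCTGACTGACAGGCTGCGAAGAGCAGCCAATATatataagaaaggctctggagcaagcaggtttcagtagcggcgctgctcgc
None of the 3 motifs was in this window. G000599, 102 bases upstream of Ccr7 on the opposite strand, stood at 10.5, 6.98 and 3.82 FPKM in CpG-B and at most 0.93 elsewhere (2.201 ± 0.61, adjusted p = 0.0472), so that it entered only through CpG-B. Its call was lost in 10 of the 12 omissions, all but CpG-A 1 and CpG-B 3 (up to 0.166). Ccr7, the chemokine receptor that guides dendritic cells to lymph nodes, rose by 5.98 (adjusted p = 0.00315). G000556 on Slfn10-ps rose with Slfn8, a Schlafen family gene, G001177 rose with Gm6904, and G003186 on Gm6637 rose with Klrg1, an inhibitory receptor of natural killer and T cells. G000556 overlaps Slfn8 and G001177 overlaps Gm6904 on the same strand, so the levels within each of these pairs are not separate measurements. The calls of G001177 and G003186 were lost without CpG-B 1 (up to 0.0942 and 0.0555), and that of G001177 also without CpG-B 2 or any control. The natural killer cell marker sums given above were also highest in CpG-B, the highest T cell sum was in a CpG-B library, and their part was not tested. G000624 fell together with Tex2, which it overlaps on the opposite strand (by 3.81 ± 0.76, adjusted p = 0.00688).

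Loci beside genes of known response were also counted. Of a list of 97 interferon-stimulated genes, 8 that passed the minimum were the nearest gene of 17 loci. Of these genes 2, 5 and 4 rose in CpG-A, CpG-B and CpG-C, and of the loci 0, 1 and 0. Pydc4, the neighbour of the Ifi206 loci that rose, is not on this list. Of 51 cytokine, chemokine and co-stimulation genes, 7 were nearest to 12 loci, and 1, 4 and 3 of the genes rose, 1 fell in CpG-B, and 0, 1 and 0 of the loci rose. Of 40 genes of plasmacytoid dendritic cell identity, 8 were nearest to 11 loci, and 1, 5 and 2 of the genes fell, with no locus called by limma. Over all rows, 1.05%, 3.26% and 1.34% rose in CpG-A, CpG-B and CpG-C, and 0.421%, 2.48% and 0.524% fell. The difference between these counts was not tested.

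When each locus was taken relative to its nearest tested known gene, 3 rose and 7 fell in CpG-A, 29 rose and 23 fell in CpG-B and 2 rose and 6 fell in CpG-C, of 1586 pairs. Over all 11530 rows with such a neighbour, 0.52% were called in CpG-A (0.225% higher and 0.295% lower), 3.13% in CpG-B (1.55% and 1.58%) and 0.572% in CpG-C (0.252% and 0.321%). Of the 52 in CpG-B, the locus itself was called in 13, the neighbour in 32 and neither in 7. G003432, an unstranded locus 528 bases upstream of Sct, the gene of the hormone secretin, stood at 2.13 to 36.4 FPKM in all libraries. Sct stood at 0.69, 2.03 and 72.7 FPKM in the controls, 2050, 2007 and 3561 in CpG-A, 194, 510 and 444 in CpG-B and 1540.1, 1724 and 2337 in CpG-C. Relative to Sct the locus fell by 8.70 ± 1.37 in CpG-A (adjusted p = 0.0155) and fell by 8.81 ± 1.37 in CpG-C (0.0105). Both calls were lost without the number 1 or number 3 library of the class or control 2, and that of CpG-A also without control 1. G000289, 37148 bases from Lilr4b, a leukocyte immunoglobulin-like receptor, stood at 1.19 to 15.9 FPKM throughout. Lilr4b rose by 5.17, 8.15 and 6.996 on the log2 scale in CpG-A, CpG-B and CpG-C, and the locus fell relative to it in each, by 8.90 ± 0.81 in CpG-B (adjusted p = 0.000174).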

How the data were processed

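RNA was sequenced from 12 libraries of plasmacytoid dendritic cells. The authors deposited 1 table of FPKM per gene, with no counts; per the submitters' processing notes the tools included HISAT, StringTie, Bowtie2 2.2.5 and RSEM 1.2.8, on mm10. How these were combined is not given in the sources used here. The values are deposited FPKM, not counts, so no count model was used and depth is unknown. Rows had to reach 1 FPKM in 3 or more of the libraries, and log2(FPKM + 1) of all 4 groups was fitted with limma 3.58.1 in R 4.3.3 (eBayes with trend, 8 residual degrees of freedom), with Benjamini-Hochberg adjustment over 11641 rows. A second fit used each row minus its nearest tested known gene. Loci were matched to GENCODE M21 exons by at least 100 shared bases. Named loci were taken from the 10 largest called rises and falls per class among groups without overlap and a higher mean of at least 2 FPKM, the 5 largest per pair of classes, the 8 highest means and the 4 largest relative differences per direction; other named loci and all processed copies were chosen after their values were seen. Members and lists were chosen with earlier results of these data known. The code was tested on simulated data. Alternatives were other scaling, pseudocounts, filters, groups, summed entries, a replicate block and omitted libraries. Some genes are not reported here.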

Additional observations from a re-analysis of the deposited data

How the results depend on the processing

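Counts of called loci depended on the processing. In CpG-A the count of 13 became 4 without the filter on low values, 20 with median-of-ratios scaling, 1 with only the groups compared and 5 without the 4 libraries numbered 1. In CpG-B, 66 became 36 without the filter. In CpG-C, 21 became 8 without the filter, 8 with only the groups compared and 13 without the libraries numbered 1. CpG-A against CpG-B, 26 loci, became 15, 3 and 14 under those 3 settings, and CpG-B against CpG-C, 20 loci, became 8, 3 and 6, and 11 with a pseudocount of 0.1. Relative to the neighbour, the counts 10, 52 and 8 became 4, 19 and 3 with a pseudocount of 0.1, and without the libraries numbered 1 that of CpG-A became 1 and that of CpG-C 0. The cause was not tested. Leaving out single libraries gave 9 to 19 in CpG-A, 33 to 73 in CpG-B, 10 to 25 in CpG-C, 9 to 35 for CpG-A against CpG-B, 0 to 0 for CpG-A against CpG-C and 2 to 17 for CpG-B against CpG-C, and relative to the neighbour 0 to 9, 17 to 60 and 1 to 13. Counts fell by over 1.5 times in CpG-B without CpG-B 1 (33), CpG-B 2 (36) or control 2 (38), and in CpG-C without CpG-B 1 (13), CpG-C 1 (10), CpG-C 3 (11) or control 2 (10). For CpG-A against CpG-B this held without CpG-A 1 (16), CpG-A 2 (9), CpG-A 3 (17) or CpG-B 1 (10), and for CpG-B against CpG-C without any CpG-C library, CpG-B 1, CpG-B 2, CpG-A 3 or control 2. Relative to the neighbour it held in CpG-A without any CpG-A or CpG-B library, control 1 or control 2, in CpG-B without any CpG-B library, control 1 or control 2, and in CpG-C without any CpG-B or CpG-C library, control 1 or control 2, while leaving out CpG-A 1 raised it to 13.

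The labels number libraries 1 to 3 in each group. Deviations from the group means correlated at 0.061 to 0.170 between same-numbered libraries, with 11 of 18 values over 0.1. Among libraries of other groups, each of the 12 correlated best with one of its own number. What the numbers stand for is not given, so the main fit did not use them. Any effect shared by number therefore stayed in the spread of the main fit. With the replicate block the counts rose from 13 to 33 in CpG-A, from 66 to 87 in CpG-B and from 21 to 31 in CpG-C. They were 38 for CpG-A against CpG-B and 26 for CpG-B against CpG-C, and relative to the neighbour 11, 64 and 13. Median-of-ratios scaling moved the share of higher calls in CpG-B from 68.2% to 76.8%. No named locus reversed its direction under any alternative run. Of the 66 called differences of named loci, 44 lost their call without the filter, 35 without the libraries numbered 1, 34 with only the groups compared, 22 with a pseudocount of 0.1, 2 with median-of-ratios scaling and 2 with summed entries, and leaving out single libraries lost 176 of 792 values. Of 21 relative differences, 14 were lost with a pseudocount of 0.1, 14 without the libraries numbered 1 and 4 with the replicate block, 6 of 14 with the nearest gene of the same strand, and 88 of 252 values when single libraries were left out.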
